A study of Mus musculus with 34 samples.

Results

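Transcripts that mark the choroid plexus, the meninges and the macrophages of the brain's borders were followed across arrays of mouse hippocampus and neocortex. The genes considered were Ttr, Kl, Igf2, Igfbp2, Ptgds, Enpp2 and Folr2. They were found as the probe sets that the platform annotation gives to 1 of these symbols alone. Of the 7 genes, 6 were measured by 9 probe sets, among 8251 genes with 10833 single-symbol probe sets in the series. Ptgds had 3 probe sets and Igf2 had 2, and the one with the highest mean log2(signal + 16) gives the value of a gene here.

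All animals were young male mice, and neither a strain nor a genetic change is named in the labels. Kainate, an agonist of glutamate receptors that provokes seizures, was injected intraperitoneally at 15 mg/kg. Other mice received nicotine, which activates nicotinic acetylcholine receptors, at 10 mg/kg, or saline. Each mouse received 3 injections at 2 h intervals on postnatal day 23, and those alive on postnatal day 30 were used for hippocampus and neocortex, so the kainate mice are survivors of the treatment. Each region has 5 kainate, 6 nicotine and 6 saline arrays, 34 in all. Arrays are not linked to mice in the labels, so comparisons between regions treat the arrays as independent.

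The choroid plexus is a folded epithelium in the ventricles that secretes cerebrospinal fluid, and a fold of it is attached along the fimbria of the hippocampus. Its epithelium makes transthyretin (Ttr), which carries thyroxine and retinol-binding protein, and Klotho (Kl), a co-receptor of fibroblast growth factor 23. The meninges wrap the brain surface, and their fibroblasts make insulin-like growth factor 2 (Igf2), the binding protein Igfbp2 and lipocalin-type prostaglandin D synthase (Ptgds); the plexus and, for Ptgds, oligodendrocytes express some of these too. Folr2 encodes folate receptor beta, which marks macrophages of the meninges, the plexus and the vessel walls.

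The regions carried their own markers. Zbtb20, a transcription factor of hippocampal neurons, had a median signal of 2574 in the hippocampus and 574 in the neocortex, and Cux2, a factor of upper cortical layers, had 99.8 in the hippocampus and 498 in the neocortex. Of 8 choroid plexus markers, 5 were measured. Aqp1, the water channel of the plexus, was dim (median signal 110 in the hippocampus and 91.1 in the neocortex), and Folr1, its folate receptor alpha, had 589.9 and 265 in the same order. Fibroblast collagens were measured in both regions, with Col1a2 at 2927 in the hippocampus and 2722 in the neocortex. The defining border macrophage genes Mrc1, Lyve1 and Pf4 were dim, with medians of 114, 36.0 and 116 in the hippocampus. The authors had scaled each array to a trimmed mean near 1000.5. The median array signal in the hippocampus nevertheless ran from 403 to 439 with kainate and from 394 to 435 with nicotine, against 381 to 391 with saline, without overlap. The levels of spiked control probe sets sorted the arrays into 3 clusters. The largest held 9 hippocampal arrays, 3 of each treatment, and 14 neocortical ones, and results within it are given where they bear on a call.

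Ttr was the most variable transcript of the hippocampus. Its signal on the 5 kainate arrays was 2790.3, 9511, 38.1, 466 and 7393. It had a lowest value of 331, a median of 2251 and a highest of 9588 on the nicotine arrays, and a lowest of 199.6, a median of 4816 and a highest of 8215 on the saline arrays. Each treatment thus held arrays with very low and arrays with very high Ttr, and the groups overlapped along most of their range. The highest hippocampal array exceeded the lowest 252-fold. At 38.1 the lowest array lay under 131, the level used to filter out dim probe sets in the hippocampus. The size of the range is therefore uncertain. The standard deviation within groups was 2.33 on the log2 scale, rank 1 of the 8695 probe sets tested, whose median was 0.282.

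The neocortical signals of Ttr were smaller and closer together. The kainate arrays had signals of 831, 2001, 197, 175 and 504. The nicotine arrays had a lowest value of 108, a median of 666 and a highest of 1791, and the saline arrays 186, 395 and 1719.8. Here too every treatment held low and high arrays, and the groups overlapped. The array at 108 lay under 128, the level of the same filter in the neocortex. The within-group standard deviation of 1.38 ranked 4 of 8695, against a median of 0.268.

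**Figure D1:**
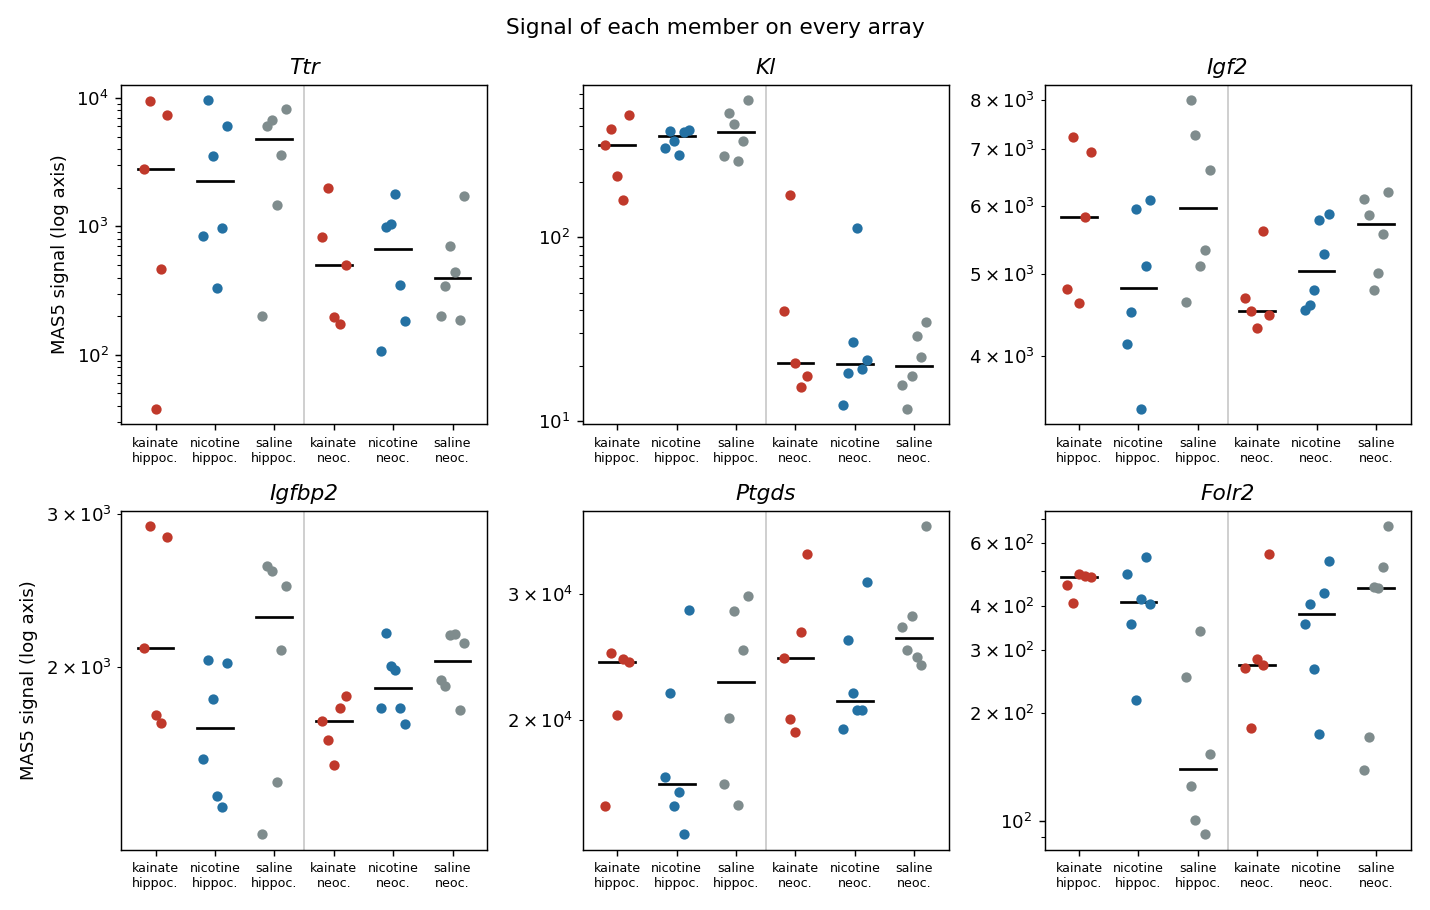
MAS5 signal (log axis) of the 6 measured genes on each of the 34 arrays. Points are arrays of the kainate, nicotine and saline groups, hippocampus (hippoc.) left of neocortex (neoc.), and bars are group medians. Ttr spans 38.1 to 9588 in the hippocampus, Kl separates the regions, and Folr2 of the saline hippocampus lies below all 5 kainate arrays.

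Ttr averaged 4369 ± 3145 in the saline hippocampus and 599 ± 581 in the saline neocortex (SD, n = 6 each), a log2 fold change of 2.56 ± 0.99 SE (limma adjusted p = 0.102). The estimate was 1.43 ± 1.09 SE in kainate mice and 1.96 ± 0.99 SE in nicotine mice (limma adjusted p = 0.479 and 0.275). Ttr therefore did not pass the test of region in any treatment, although its median was higher in the hippocampus in all 3. In pieces of whole tissue, fewer cells of a type and less RNA per cell cannot be told apart. The saline difference passed when 1 low array, saline hippocampus replicate 1 with a signal of 199.6, was left out (limma adjusted p = 0.024), and with arrays weighted by quality (limma adjusted p = 0.048). Neither drug moved Ttr past the test. In the hippocampus the log2 fold change was -0.96 ± 1.17 SE for kainate and -0.45 ± 1.12 SE for nicotine (limma adjusted p = 0.776 and 0.966). The interval for kainate, -3.40 to 1.48, covers large changes either way. Without kainate replicate 3, the dim array at 38.1, the estimate was 0.21. Without nicotine replicate 4 the nicotine estimate was 0.058.

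Kl separated the regions more cleanly. Its hippocampal signals were 316, 389, 214, 158 and 459 with kainate. They ran from 281 to 380.2 with a median of 352 with nicotine, and from 259 to 553 with a median of 371 with saline. In the neocortex the kainate arrays had 39.8, 168.5, 20.7, 15.3 and 17.5, the nicotine arrays ran from 12.2 to 112 with a median of 20.4, and the saline arrays from 11.7 to 34.5 with a mean of 21.8. The regions did not overlap in nicotine or saline mice, while 1 kainate neocortical array, at 168.5, lay above the lowest kainate hippocampal array, at 158. Of the tested probe sets, 3.28% were higher without overlap in the saline hippocampus and 3.06% in the nicotine hippocampus. Kl was at the 26.6th percentile of all probe sets and fell below the filter on dim probe sets, so limma did not test it between regions. On 16 of 17 neocortical arrays its signal lay under the filter level of 128, so the size of the regional difference was not measured, and no fold is given. Within the hippocampus, where Kl passed the filter, it averaged 307 ± 123 with kainate (n = 5), 341 ± 41.7 with nicotine (n = 6) and 384 ± 116 with saline (SD, n = 6). Neither drug passed the limma test there (adjusted p = 0.569 for kainate and 0.954 for nicotine).

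Some other genes of the plexus were higher in the hippocampus too. Of 13 tested genes of a choroid plexus list, 4 were higher in the hippocampus of saline mice and 0 were lower, with a median log2 fold change of 0.42 against 0.00 over all probe sets. They were Car12 and Car2, carbonic anhydrases, Calml4, a calmodulin-like protein, and Folr1, set against 10.5% of all probe sets called in either direction. Calml4 averaged 342 in the saline hippocampus and 88.8 in the saline neocortex, under the filter level of 129.7, and so passed the filter through the region where it was high. Folr1 averaged 566 ± 314 in the saline hippocampus and 193 ± 92.1 in the saline neocortex (SD, n = 6 each), 2.57-fold higher (limma adjusted p = 0.032). Car2 is also an oligodendrocyte gene, and 4 of 8 oligodendrocyte and 7 of 13 astrocyte genes were higher in the saline hippocampus, with Car2 counted on both lists. In kainate mice 4 and in nicotine mice 3 plexus genes were higher and 0 lower. Of all probe sets, 13% and 9.61% were called there in either direction. Fgfr1, a receptor that Klotho joins, was 2.70-fold higher in the saline hippocampus (limma adjusted p = 5.3e-11). Of the 13 tested genes of retinol and thyroid hormone transport and response, whose ligands Ttr carries or helps to carry, 3 were higher and 5 lower there. Crym, which binds thyroid hormone in the cytosol, was 3.69-fold higher in the saline hippocampus, and Rbp4, the plasma carrier of retinol, was 1.88-fold lower (limma adjusted p = 7.4e-13 and 0.00037).

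Igf2, a growth factor of the meninges and plexus, was bright in every array. Its kainate hippocampal signals were 4802, 7229, 4623, 5823 and 6942. The nicotine hippocampus ran from 3474 to 6096 with a median of 4810.3 and the saline hippocampus from 4639 to 7989.9 with a median of 5975. The neocortex was tighter, from 4318 to 5609 with kainate, 4529 to 5883 with nicotine and 4780.4 to 6237 with saline. The groups overlapped in both regions. Its second probe set was near background, at 11.3 to 134, and did not follow the bright one within groups (r = -0.25 in the hippocampus and -0.14 in the neocortex), so Igf2 rests on 1 probe set.

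Igfbp2, which binds insulin-like growth factors outside the cell, had kainate hippocampal signals of 2103, 2902, 1766, 1728 and 2823. The nicotine hippocampus ran from 1384 to 2041 with a median of 1704 and the saline hippocampus from 1288 to 2614 with a median of 2287. Neocortical arrays stayed between 1548 and 2192 in all treatments. The within-group standard deviation was 0.356 in the hippocampus and 0.118 in the neocortex on the log2 scale. The hippocampal arrays thus spread on both sides of the neocortical ones.

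Neither gene passed the test for drug or region. The log2 fold change of Igf2 was -0.33 ± 0.16 SE for nicotine in the hippocampus and -0.24 ± 0.10 SE for kainate in the neocortex (limma adjusted p = 0.851 and 0.850). Igfbp2 gave -0.23 ± 0.09 SE for kainate in the neocortex (limma adjusted p = 0.821). Between regions of kainate mice Igfbp2 was at 0.36 ± 0.16 SE (limma adjusted p = 0.146), which passed with arrays weighted by quality (adjusted p = 0.031). Among other genes of the insulin-like growth factor pathway, 2 of 15 tested were lower and 0 higher in the hippocampus of saline mice, a share near the 10.5% of all probe sets. They were Igfbp6, a binding protein that prefers Igf2 and is made by meningeal fibroblasts, at 784 ± 379 in the saline hippocampus and 2975 ± 252 in the saline neocortex (SD, n = 6 each), and Mest, an imprinted gene. Igfbp6 was 4.12-fold lower (limma adjusted p = 5.1e-08). Genes of a list for meninges and fibroblasts did not share 1 direction, with 4 of 36 higher and 2 lower in the saline hippocampus, also against 10.5% of all probe sets. Dcn, the proteoglycan decorin, was 3.05-fold higher (limma adjusted p = 1.8e-10), while Igfbp6 was on this list too.

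Ptgds, which makes prostaglandin D2, was among the brightest probe sets. Its signal was 15186, 24863, 20318, 24389 and 24101 in the kainate hippocampus. It ran from 13864 to 28481 with a median of 16284 in the nicotine hippocampus and from 15221 to 29829.0 with a median of 22637 in the saline hippocampus. In the neocortex it ran from 19287 to 34130 with kainate, 19473 to 31214 with nicotine and 23908 to 37328 with saline. The median was lower in the hippocampus in each treatment, but the regions overlapped. The log2 fold change between hippocampus and neocortex was -0.19 ± 0.19 SE in kainate, -0.35 ± 0.17 SE in nicotine and -0.33 ± 0.17 SE in saline mice (limma adjusted p = 0.627, 0.272 and 0.283). The other probe sets of Ptgds followed the brightest within groups, with r = 0.681 and 0.937 in the hippocampus and 0.456 and 0.819 in the neocortex. Of 8 tested genes of prostaglandin synthesis and reception, 0 were called by limma between the regions of saline mice, and 0 had an unadjusted p under 0.05. In kainate mice 1 of the 8 was called, against 13% of all probe sets: Ptges2, a prostaglandin E synthase, fell by 0.40 on the log2 scale in the hippocampus relative to the neocortex (limma adjusted p = 0.022).

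The spread of Ptgds in the neocortex moved with the spiked controls. The 3 neocortical arrays outside the largest control cluster, 1 of each treatment, had Ptgds signals of 31214 to 37328, against 19287 to 27974 on the 14 others. Folr2 ran from 532 to 667 on the same 3 arrays and from 139 to 513 on the 14. Both genes were thus at their highest on those 3 arrays. The part of hybridisation in this was not tested. Ttr on the 3 arrays, 183 to 1719.8, lay within the range of the others.

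Folr2 was the only member called for a drug. In the hippocampus it had signals of 457, 407, 489.8, 484 and 480.1 on the kainate arrays. It had a lowest value of 218, a median of 410.1 and a highest of 547 on the nicotine arrays, and a lowest of 91.7, a median of 139 and a highest of 339 on the saline arrays. The kainate and saline groups did not overlap, and 5 of the 6 nicotine arrays also exceeded the highest saline array. Folr2 rose 2.74-fold with kainate, a log2 fold change of 1.45 ± 0.28 SE (limma adjusted p = 0.0038), which made 1 of 6 tested members called against 2.79% of all probe sets tested. Higher without overlap were 2.31% of all probe sets. On 3 of the 6 saline arrays, at 124.8 or less, Folr2 lay under the filter level of 131, so the size of the rise is uncertain.

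With nicotine the log2 fold change of Folr2 was 1.22 ± 0.27 SE, with an interval of 0.65 to 1.78 and an unadjusted limma p of 0.00021. The limma adjusted p was 0.851, and 0% of probe sets were called for nicotine in the hippocampus. There 0 of 6 members were called and 2 had an unadjusted limma p under 0.05. Kainate and nicotine share the saline arrays, on which Folr2 was low. The saline arrays also had the lower array medians given above, and with each array centred on its median the log2 fold change was 1.34 for kainate (limma adjusted p = 0.00834) and 1.15 for nicotine (limma adjusted p = 0.600). Within the largest control cluster the kainate estimate was 1.502 and no longer passed (limma adjusted p = 0.053).

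Markers of other cell types moved beside Folr2. All 11 tested genes of a microglia and macrophage list were higher in the kainate hippocampus, where 2.79% of all probe sets were called. The median log2 fold change of the list was 1.86 against 0.01 over all probe sets. Their summed signal over 15 measured genes was 49144 to 80294 with kainate and 17624 to 20323 with saline. Examples were Mpeg1, a pore-forming protein of macrophages, 7.87-fold higher, and Ctss, a lysosomal protease, 4.29-fold higher (limma adjusted p = 1.7e-09 and 4.2e-10). With nicotine the same list summed to 16600 to 20174, and 0 of 11 were called by limma, with 1 at an unadjusted p under 0.05. Of the 3 tested genes of a border macrophage list, 0 passed for kainate, while all 3 had an unadjusted limma p under 0.05. Their median log2 fold change was 0.44 against 0.01 over all probe sets. Cd14 had a log2 fold change of 0.51 ± 0.14 SE, Stab1 of 0.44 ± 0.16 SE and Dab2 of 0.42 ± 0.20 SE (limma adjusted p = 0.055, 0.164 and 0.351). The 8 measured genes of this list summed to 2788 to 3850 with kainate, 2123 to 2975 with nicotine and 2104 to 3208 with saline. Cd14 alone averaged 1523 with kainate and 1056 with saline, so these sums rest in large part on 1 gene. The dim mannose receptor Mrc1 ran from 103 to 213, from 20.4 to 119 and from 29.0 to 154 in the same groups, which overlapped. Astrocyte genes moved as well: 8 of 13 were higher in the kainate hippocampus, with a median log2 fold change of 0.44 against 0.01 over all probe sets. Gfap, the filament protein of reactive astrocytes, was 4.69-fold higher (limma adjusted p = 4.4e-12), and the list summed to 250267 to 294248 with kainate and 186243 to 195915 with saline. The part of microglia, border macrophages or astrocytes in the rise of Folr2 was not tested.

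In the neocortex neither drug moved Folr2 past the test. The kainate arrays had signals of 267, 182, 283, 272 and 556, and the nicotine arrays ran from 175 to 532 with a median of 379.7, against 139 to 667 with a median of 449 with saline. The log2 fold change for kainate was -0.24 ± 0.37 SE (limma adjusted p = 0.959). The kainate effect in the hippocampus minus that in the neocortex was 1.69 ± 0.48 SE, with an interval of 0.71 to 2.67, and missed the threshold (limma adjusted p = 0.117, with 0.794% of probe sets called). It passed in 3 fits that each left out 1 saline array: neocortex replicate 1 (1.93, limma adjusted p = 0.027), neocortex replicate 2 (1.88, 0.047) or hippocampus replicate 4 (1.89, 0.044). The nicotine effect differed by 1.24 ± 0.46 SE (limma adjusted p = 0.994, with 0% called). In each of these tests of a difference 0 of 5 members were called and Folr2 was the 1 with an unadjusted limma p under 0.05.

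Folr2 was also the 1 member of 5 tested that was called between regions of saline mice, where 10.5% of all probe sets were called. It averaged 177 ± 98.2 in the saline hippocampus and 398 ± 205 in the saline neocortex (SD, n = 6 each), and fell by 1.05 on the log2 scale (SE 0.32, limma adjusted p = 0.030). The groups overlapped: saline neocortex held 2 low arrays, at 139 and 171, and saline hippocampus 1 high array, at 339. The 3 saline hippocampal arrays under the filter level leave the size of this difference uncertain too. The call was lost in 8 of 12 fits that left out 1 saline array (neocortex replicates 3, 4, 5 and 6, hippocampus replicates 2, 3, 5 and 6), with limma adjusted p values up to 0.098. It was also lost with arrays weighted by quality (limma adjusted p = 0.067) and within the largest control cluster (limma adjusted p = 0.123). In kainate and nicotine mice the log2 fold change between hippocampus and neocortex was 0.64 ± 0.36 SE and 0.19 ± 0.32 SE (limma adjusted p = 0.285 and 0.841). In kainate mice 0 of 5 members were called between regions against 13% of all probe sets, with 2 at an unadjusted limma p under 0.05. In nicotine mice 0 of 5 were called against 9.61%, with 0 at an unadjusted p under 0.05.

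Apart from Folr2 no measured member was called for either drug in either region. In the hippocampus the log2 fold changes of the other 5 lay between -0.96 and 0.13 for kainate and between -0.45 and -0.12 for nicotine. In the neocortex 0 of 5 tested members were called for kainate (0.0115% of all probe sets) and 0 of 5 for nicotine (0%), with 2 and 0 members at an unadjusted limma p under 0.05. Those 2 were Igf2 and Igfbp2. The gene lists for choroid plexus, insulin-like growth factors, prostaglandins and folate transport likewise had 0 genes called by limma for either drug in either region, with 0 to 3 genes a list at an unadjusted p under 0.05. The meningeal list had 1 of 36 called for kainate in the hippocampus, a share near the 2.79% of all probe sets, and 7 at an unadjusted limma p under 0.05. The called gene was Bgn, the proteoglycan biglycan, 1.73-fold higher (limma adjusted p = 0.0040). The summed signal of the 41 measured meningeal genes was 37959 to 43923 in the kainate hippocampus, 33674 to 37832 in the nicotine hippocampus and 33387 to 37212 in the saline hippocampus. The sum of 10 folate genes was 4992 to 5387 with kainate and 4208 to 4899.8 with saline. Bright genes weigh most in such sums, and how often sums of other genes separate these groups was not tested. The median signal of the kainate arrays was also above that of the saline arrays, and its part in these sums was not tested. The list of retinol and thyroid hormone genes had 1 of 13, Crym, which fell by 0.56 on the log2 scale (limma adjusted p = 0.036). The list for lysophosphatidic acid had 1 of 3, Plpp3, a lipid phosphatase, 1.54-fold higher (limma adjusted p = 0.0038).

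**Figure D2:**
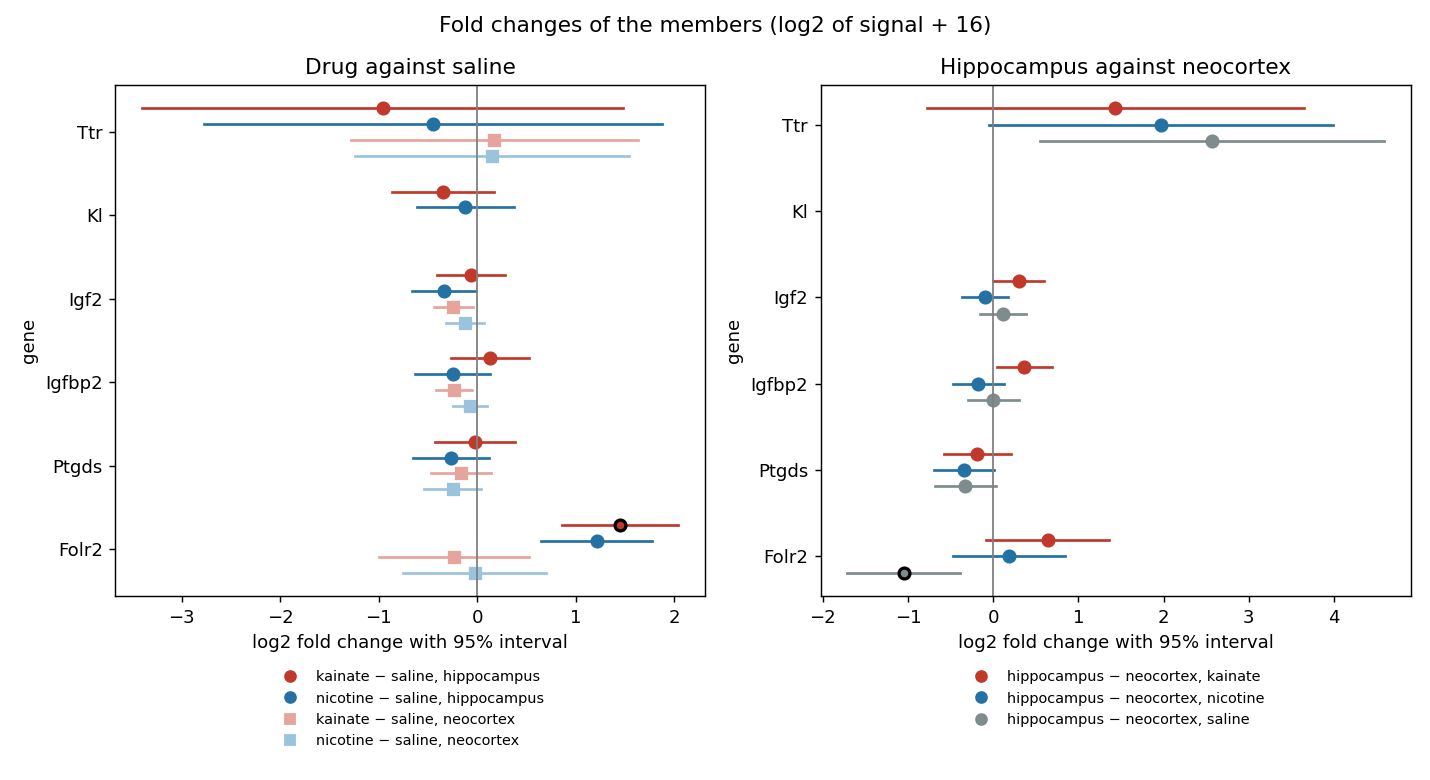
Log2 fold changes of log2(signal + 16) with 95% intervals from limma, for each drug against saline (left) and for hippocampus against neocortex (right). Symbols ringed in black have an adjusted p under 0.05, which holds for Folr2 alone: 1.45 for kainate in the hippocampus and -1.05 between regions of saline mice. Kl was tested for the drugs in the hippocampus.

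Within a group, several of these genes deviated together from array to array. For each region the deviations of log2(signal + 16) from the group means were correlated over 17 arrays, which gave 30 pairs of genes in all. The test permuted arrays within groups, was two-sided, and was adjusted by the Benjamini-Hochberg method over the 30 pairs. In the hippocampus 8 of 15 pairs passed an adjusted permutation p of 0.05, 7 with a positive and 1 with a negative correlation. In the neocortex 1 of 15 did.

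Ttr and Igfbp2 followed each other most closely in the hippocampus, with Pearson's r = 0.876 (permutation p = 2e-05, adjusted 6e-04) and Spearman's rho = 0.863 (permutation p = 4e-05, adjusted 0.00105). Without the 2 arrays farthest from the median of Ttr, r was 0.882. It was 0.878 among kainate, 0.939 among nicotine and 0.942 among saline arrays. The array with the highest kainate signal of Ttr, 9511, also had the highest of Igfbp2, 2902, and the saline array with the lowest Ttr, 199.6, had the lowest Igfbp2, 1288. Among 8483 probe sets ranked by their correlation with Ttr in the hippocampus, Igfbp2 stood at rank 3 and Igf2 at rank 46.

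Kl joined both. With Ttr it had r = 0.775 (permutation p = 0.0013, adjusted 0.0097) and rho = 0.878 (permutation p = 7e-05, adjusted 0.00105), and r = 0.781 without the 2 farthest arrays. With Igfbp2 it had r = 0.830 (permutation p = 0.00038, adjusted 0.0043) and rho = 0.892 (permutation p = 0.00033, adjusted 0.0033), and r = 0.806 without the 2 farthest arrays. Ttr and Kl were correlated within each treatment to nearly the same degree, at 0.803 among kainate, 0.794 among nicotine and 0.796 among saline arrays.

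Igf2 belonged to the same set in the hippocampus. Its r was 0.765 with Igfbp2 (permutation p = 0.0016, adjusted 0.0097, rho = 0.765 with permutation p = 0.00105, adjusted 0.0063) and 0.723 with Ttr (permutation p = 0.0022, adjusted 0.0108, rho = 0.718 with permutation p = 0.0030, adjusted 0.0148). With Kl it was 0.632 (permutation p = 0.0102, adjusted 0.037, rho = 0.689 with permutation p = 0.0048, adjusted 0.0185). Without the 2 farthest arrays these correlations were 0.744, 0.646 and 0.599. Igf2 with Kl no longer passed after quantile normalization (r = 0.539, adjusted permutation p = 0.1003), nor without 1 of 13 arrays of the hippocampus (kainate replicates 2, 3 and 5, nicotine replicates 1, 4, 5 and 6, and each of the 6 saline replicates), with adjusted permutation p up to 0.072.

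**Figure D3:**
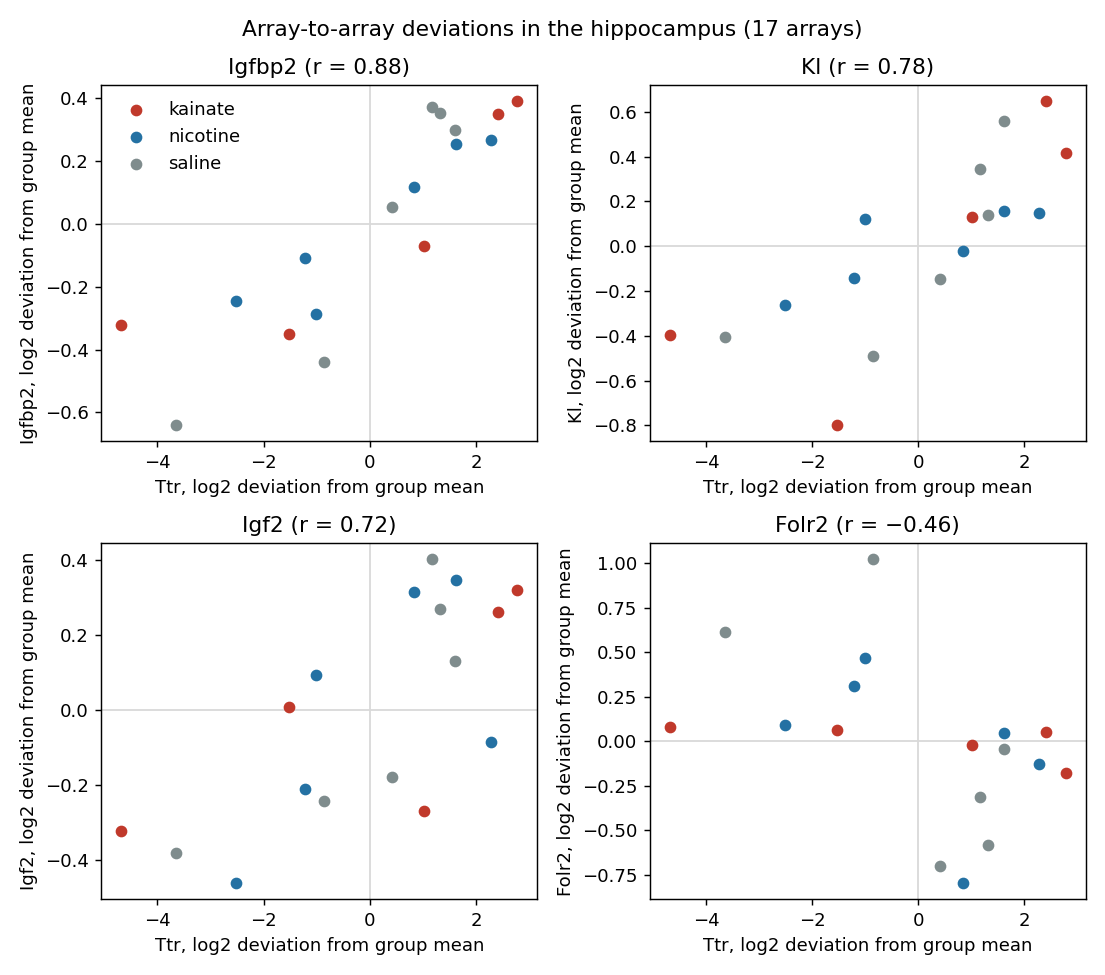
Deviations of Ttr from its group mean (x axis, log2) against those of Igfbp2, Kl, Igf2 and Folr2 (y axes, log2) on the 17 hippocampal arrays, coloured by treatment. Igfbp2, Kl and Igf2 rise with Ttr (r = 0.876, 0.775 and 0.723) in all treatments, and Folr2 lies lower where Ttr is higher (r = -0.46, which did not pass the adjusted test).

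By Pearson's r, Ptgds passed with Igfbp2 alone, at r = 0.670 (permutation p = 0.0074, adjusted 0.032), rho = 0.620 (permutation p = 0.0154, adjusted 0.043) and r = 0.545 without the 2 farthest arrays. This pair no longer passed without 1 of 9 hippocampal arrays (kainate replicates 2 and 5, nicotine replicates 5 and 6, saline replicates 1, 3, 4, 5 and 6). The Pearson correlation of Ptgds with Ttr was 0.506 (permutation p = 0.0398, adjusted 0.092), while Spearman's rho passed at 0.569 (permutation p = 0.0157, adjusted 0.043). Folr2 ran the other way. With Igfbp2 it had r = -0.66 (permutation p = 0.0112, adjusted 0.037) and rho = -0.75 (permutation p = 0.00092, adjusted 0.0063). This r was -0.47 without the 2 farthest arrays, and the pair no longer passed with arrays centred on their medians (r = -0.56, adjusted permutation p = 0.097) or after quantile normalization (adjusted permutation p = 0.067). It also missed the threshold without 1 of 9 hippocampal arrays (kainate replicates 2 and 3, nicotine replicates 1 and 5, saline replicates 1, 2, 3, 4 and 6), with adjusted permutation p up to 0.078. With Ttr, Folr2 had r = -0.46 (permutation p = 0.0274, adjusted 0.069) and rho = -0.57 (permutation p = 0.0075, adjusted 0.025). The macrophage gene thus stood apart from the genes correlated positively with Ttr.

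In the neocortex the pair that passed was Ttr with Kl, although Kl was under the filter level on 16 of the 17 arrays. This pair had r = 0.726 (permutation p = 0.00043, adjusted 0.0043) and rho = 0.689 (permutation p = 0.0049, adjusted 0.0185). Without the 2 arrays whose Ttr deviated farthest, kainate replicate 2 and nicotine replicate 1, r was 0.646. The 2 neocortical arrays with the most Kl, kainate replicate 2 at 168.5 and nicotine replicate 4 at 112, were also the 2 with the most Ttr, at 2001 and 1791. On the 15 others Kl ran no higher than 39.8. Ttr and Igfbp2 had r = 0.576 (permutation p = 0.0270, adjusted 0.069) and rho = 0.581 (permutation p = 0.0190, adjusted 0.044). Ttr and Igf2 had r = -0.06 (permutation p = 0.823, adjusted 0.823) with rho = -0.10 (permutation p = 0.737, adjusted 0.763), so the link of Igf2 to Ttr seen in the hippocampus did not appear there. Whether the regions differ in it was not tested. Ptgds and Folr2 had r = 0.545 (permutation p = 0.0248, adjusted 0.069) with rho = 0.397 (permutation p = 0.120, adjusted 0.190), and r = 0.058 within the largest control cluster (permutation p = 0.812).

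**Figure D4:**
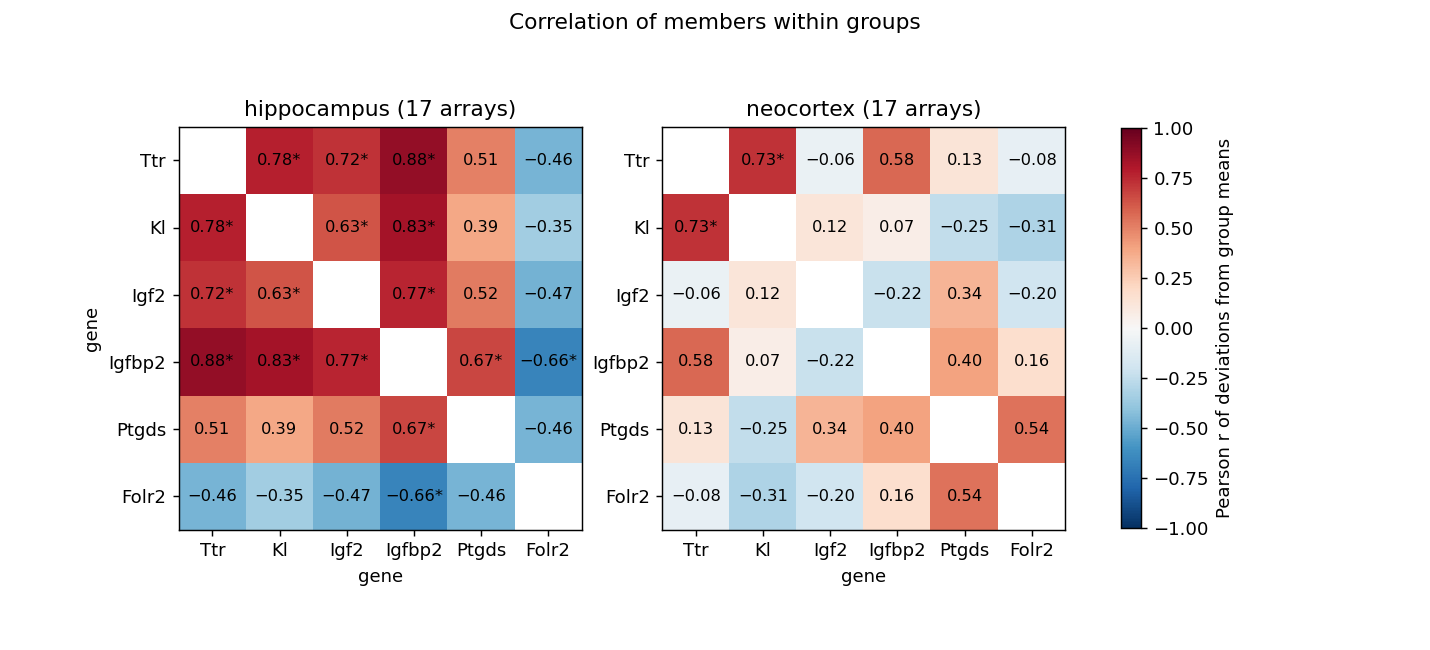
Pearson correlations between the 6 measured genes of their deviations from group means, in the hippocampus (left) and the neocortex (right), over 17 arrays each. Stars mark an adjusted permutation p under 0.05. The block of Ttr, Kl, Igf2 and Igfbp2 is positive throughout in the hippocampus (0.632 to 0.876), and in the neocortex Ttr with Kl alone is starred (0.726).

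Within the 9 hippocampal arrays of the largest control cluster, r was 0.961 for Ttr with Igfbp2, 0.871 for Ttr with Kl and 0.857 for Igfbp2 with Kl (adjusted permutation p = 0.057 each), as large as over all 17. No pair of either region passed there. With 3 hippocampal arrays of each treatment there are 216 arrangements within groups and no p below 0.00463, so a lone pair could not pass after adjustment over 30 pairs. The median signal of an array was not correlated past the test with any of the 6 genes in either region, the smallest adjusted permutation p of the 12 relations being 0.342. That was Folr2 in the neocortex, with r = 0.61 (unadjusted permutation p = 0.028). In the hippocampus Kl had r = -0.49 (unadjusted permutation p = 0.072) and rho = -0.52 (unadjusted permutation p = 0.045), and Ttr had r = -0.40 (unadjusted permutation p = 0.178).

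Kl and Igfbp2 are shown by their promoters, since both followed Ttr on the hippocampal arrays. RefSeq entries of build GRCm38.p6, which cover 250 bases before to 50 bases after a gene's start, matched 5 of the 7 genes. The Kl window is chr5:150952357-150952656 and the Igfbp2 window chr1:72824230-72824529, both on the + strand. Capitals mark the GC box GGGCGG and the E-box CACGTG, searched on both strands together with the OTX motif TAATCC.
Kl: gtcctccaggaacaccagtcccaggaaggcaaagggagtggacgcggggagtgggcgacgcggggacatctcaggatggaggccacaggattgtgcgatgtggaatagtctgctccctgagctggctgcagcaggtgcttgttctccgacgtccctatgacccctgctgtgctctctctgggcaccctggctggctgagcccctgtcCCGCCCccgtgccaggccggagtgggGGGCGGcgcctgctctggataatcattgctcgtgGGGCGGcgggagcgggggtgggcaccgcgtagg
Igfbp2: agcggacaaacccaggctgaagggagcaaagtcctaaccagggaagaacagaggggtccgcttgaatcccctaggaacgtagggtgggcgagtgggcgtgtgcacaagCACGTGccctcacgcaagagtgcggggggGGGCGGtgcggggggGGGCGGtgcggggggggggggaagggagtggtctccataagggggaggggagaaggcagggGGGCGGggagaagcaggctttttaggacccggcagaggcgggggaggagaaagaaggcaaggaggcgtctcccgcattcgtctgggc
Each window holds 3 GC boxes, a motif present in 35.7% of 32851 promoter windows of the same length, and the Igfbp2 window also holds 1 E-box, present in 7.15%. The letters of the OTX motif, present in 7.06% of the windows, are in neither. The matches overlap no other motif searched, and they describe these letters alone.

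Genes outside the set that were most like a member were ranked by the lower of their correlations in the 2 regions, as a description over 17 arrays each. For Ttr the first was Folr1, with r = 0.693 in the hippocampus and 0.756 in the neocortex, followed by Acaa1b (0.688 and 0.614), Commd2 (0.731 and 0.599) and Pak1ip1 (0.612 and 0.583). Folr1 was also among the 4 nearest to Igfbp2 (0.822 and 0.620) and to Kl (0.579 and 0.550). The gene nearest to Kl was Ttr itself. The folate receptor of the plexus epithelium thus stood near 3 members. For Kl the neocortical correlations rest on dim signal, under the filter level of 128 on 16 of 17 arrays. Folr2, the folate receptor of macrophages, stood near Pttg1 (0.621 and 0.747), Dcps (0.558 and 0.529), the metalloprotease gene Mmp14 (0.517 and 0.563) and Csf3 (0.509 and 0.621). Igf2 was nearest to Ly6e (0.826 and 0.658). Ptgds was nearest to the metabolic and neuronal genes Pkm (0.849 and 0.855), Meg3 (0.811 and 0.839), Basp1 (0.793 and 0.892) and Thy1 (0.796 and 0.762). Of the meningeal list, Fmod, fibromodulin, and Mgp, matrix Gla protein, had r of 0.845 and 0.805 with Ptgds in the hippocampus and 0.187 and 0.125 in the neocortex, and Pcolce, a procollagen processing protein, had 0.625 and 0.686. In the hippocampus 10 probe sets had r of 0.8 or higher with Ptgds and 7 had -0.8 or lower. In the neocortex, where the 3 arrays outside the largest control cluster had the highest Ptgds, these counts were 86 and 213.

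Lists of cell type genes were set against Ttr in the same way. The 11 choroid plexus genes that could be correlated had a median r with Ttr of 0.434, against -0.01 over all probe sets, and 4 of them reached 0.5, a level reached by 6.41% of all probe sets. They were Lbp (0.735), Folr1 (0.693), Slc31a1, a copper importer (0.683), and Slc4a2, an anion exchanger (0.517). In the neocortex the median was 0.134 and Folr1 alone reached 0.5. The 36 genes of meninges and fibroblasts had a median r with Ttr of 0.172 in the hippocampus, and 2 of them reached 0.5. The 10 microglia and macrophage genes had a median of 0.497 with Ttr over all hippocampal arrays, and 4 of them also reached 0.5. By treatment their median was 0.930 among the 5 kainate, -0.07 among the 6 nicotine and 0.239 among the 6 saline arrays, while the plexus list had 0.238, 0.320 and 0.483. With Kl in the hippocampus the microglia list had a median r of 0.518 and the plexus list 0.272. There 5 of the 10 microglia and 2 of the 11 plexus genes reached 0.5, against 6.73% of all probe sets. With Igfbp2 the medians were 0.323 and 0.320. Positive correlation with these members was thus not particular to the plexus list. These genes share the arrays and their scaling, and whether attached choroid plexus or meninges set the shared deviations was not tested.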

How the data were processed

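The files hold 1 signal intensity per probe set and array, linear and never negative. The authors obtained these intensities, per the submitters' processing notes, with MAS5 (no version given), which summarises the probes of each set and brings every array to 1 overall level, so bright genes that rise lower the others. Detection calls were not used here. Of 12488 probe sets, 66 control probe sets were left out; 10833 of the others carry 1 gene symbol in the platform annotation, 396 carry several and 1193 none, and the last 2 kinds are not named. Tests used log2(signal + 16), which understates changes of dim genes, and the 8695 probe sets whose mean reached the 30th percentile of the arrays fitted. limma 3.58.1 in R 4.3.3 (lmFit, eBayes with trend) gave SE and p-values, adjusted by the Benjamini-Hochberg method over all tested probe sets, with calls at 0.05. Drug comparisons used 17 arrays of a region, and region comparisons all 34.

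Correlations used 100000 permutations (20000 where an array was left out). Arrays were clustered on spiked control probe sets by average linkage. Alternatives changed the pseudocount, filter, scaling, weights, blocks, probe set and arrays. The members and lists were chosen with earlier results of these data known. Genes named beside the members are the 4 most alike to each member and called genes of the lists, smallest adjusted p first. Fmod, Mgp and Pcolce, the border macrophage genes and the choroid plexus genes correlated with Ttr were named after their values were seen. On data simulated for kainate in the hippocampus (8695 probe sets), the fit recovered 78.6% of changes of log2 1 and 97.8% of log2 2. The simulated noise was independent between probe sets and had the spread of each. These shares therefore do not hold for Ttr, whose within-group standard deviation was 2.33 against a median of 0.282. Figures used Python 3.11.15 and matplotlib 3.10.9.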

Additional observations from a re-analysis of the deposited data

Results flagged for a closer look

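In 2 of 36 groups of values, 1 array stood apart from the rest of its group by Dixon's test of the gap to the nearest value over the whole range; chance alone gives about 1 in 20 groups. Ptgds on saline neocortex replicate 6 had a signal of 37328, with a gap of 0.648 of the group's range. This array is 1 of the 3 neocortical arrays outside the largest control cluster. Kl on nicotine neocortex replicate 4 had a signal of 112, with a gap of 0.722 of the range, and the same array had the highest Ttr of its group, 1791. All Kl signals of this group lay under the filter level of 128.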

How the results depend on the processing

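The limits are the number of arrays and, for Kl, the border macrophage genes, Folr2 in the saline hippocampus and the lowest Ttr array of each region, dim signal. The call of Folr2 for kainate in the hippocampus held in all 11 fits without 1 array (log2 fold change 1.31 to 1.66) and in 9 of 10 other settings in which it was tested (1.22 to 1.55). The count of members called there was 0 with a 50th percentile filter, which left Folr2 untested, and 0 within the largest control cluster, an alternative chosen after seeing the data, as was the block of treatment and number. Between regions of saline mice the count was 2 with no filter, 2 with the replicate block of treatment and number, 0 with the 50th percentile filter and 0 within the largest control cluster, and 0 to 2 with 1 array left out. It was 1 in kainate mice with no filter and with array weights, and 1 in nicotine mice with no filter, where Kl was the added gene. The count for the kainate effect between regions was 0 to 1 with 1 array left out. Same-numbered arrays of the 2 regions had correlations of deviations from -0.14 to 0.15, and 2 of 17 correlated best with their own number. These values cannot decide whether equal numbers mark the same mouse, since deviations in different regions of an animal need not correlate. The replicate block of number alone left every count as it was (1 for kainate in the hippocampus); with the block of treatment and number Ttr passed between regions of saline mice (limma adjusted p = 0.021). The count of correlated pairs, 9 over all arrays, was 6 to 10 with 1 array left out, 0 within saline arrays alone and 0 within the largest control cluster; both have fewer arrays. The estimate of Ttr turned from negative to positive for kainate in the hippocampus within the largest control cluster (0.18) and, with 1 array left out, ranged from -1.69 to 0.21; for nicotine there it ranged from -1.17 to 0.058.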
